A study of Homo sapiens with 8 samples.

Results

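B cell homing receptors and integrins were examined as a set of 9 genes chosen by name: the chemokine receptors CCR7, CCR6, CXCR4 and CXCR5, the oxysterol receptor GPR183, the integrin subunits ITGA4, ITGB7 and ITGB1, and the transcription factor KLF2. They were 9 of the 14410 genes listed in either of the series' tables, with 9 of the 13036 genes in the SUDHL6 table and 7 of the 13700 in the HT table. CCR6 and GPR183 had no row in the HT table, which kept only genes that the authors rated detectable.

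RNA sequencing compared 4 groups of 2 libraries each, 8 libraries in all. They were SUDHL6 cells and HT cells, both established lines of diffuse large B cell lymphoma, each kept for 96 hours with iEZH or with the solvent DMSO. By the series' title the compound inhibits PRC2, the complex that places the repressive H3K27 methyl mark on chromatin through its enzyme EZH2; its dose is not given in the sources used here. Each line is a single cell culture model, and no cells from patients, normal B cells or other lines enter the comparison. The labels do not say whether the 2 libraries of a group came from separate cultures, so p-values measure only the spread between these libraries, which may be technical.

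B cells find their place in lymphoid tissue by following gradients of ligands with G protein coupled receptors and by gripping vessel walls and stroma with integrins. In a lymph node CCR7 draws cells towards the T cell zone, CXCR5 towards the follicle, GPR183 towards the outer follicle, and CXCR4 towards the dark zone of the germinal centre. The α4 subunit pairs with β1 to bind VCAM1 and fibronectin, or with β7 to bind MADCAM1 of gut vessels, and KLF2 controls homing genes such as S1PR1 in lymphocytes.

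Between 59563321 and 94821806 total reads were recorded per library, per the file headers. Levels are in FPKM, fragments per kilobase of transcript scaled to the reads of the library, a scale on which genes can be set side by side. Libraries of a line correlated at 0.981 to 0.992. Genes spanning under 300 bp made up 21.0 to 44.4% of each library's FPKM sum, lowest in iEZH replicate 2 of HT and in DMSO replicate 2 of SUDHL6, and their part in the values of other genes was not tested. The 6 B cell markers MS4A1, CD79A, CD79B, PAX5, CD22 and BLNK were listed in both lines, and so were all 6 germinal centre B cell markers. The 6 B cell markers summed to 3606 to 4248 FPKM with iEZH and 3413 to 3454 FPKM with DMSO in SUDHL6. In HT they summed to 1790.3 to 1984 FPKM with iEZH and 1616.5 to 1635 FPKM with DMSO. The germinal centre markers summed to 189 to 215 FPKM with iEZH and 221 to 266 FPKM with DMSO in SUDHL6, where 3 were higher and 3 lower with iEZH. In HT they summed to 666 to 819 FPKM with iEZH and 624 to 667 FPKM with DMSO. LMO2 among them was barely detected in HT, at 0.276 and 0.437 FPKM with iEZH and 0.0613 and 0.136 FPKM with DMSO. Of 11 T and NK cell markers, 0 were listed in SUDHL6 and 6 in HT, where they summed to 2.27 to 3.09 FPKM with iEZH and 1.02 to 1.69 FPKM with DMSO. Of 10 myeloid markers, 1 was listed in SUDHL6 (0.115 to 0.159 FPKM with iEZH, 0.200 to 0.273 FPKM with DMSO) and 3 in HT. In HT nearly all of that signal was CD33, at 67.7 and 70.1 FPKM with iEZH and 55.9 and 60.7 FPKM with DMSO, while CD14 and LYZ stood between 0.138 and 0.794 FPKM and the other 7 markers had no row. Of 12 epithelial and stromal markers, 0 were listed in SUDHL6 and 3 in HT (3.98 to 5.80 FPKM with iEZH, 3.36 to 3.65 FPKM with DMSO). The part of these markers in the results was not tested. In bulk RNA, fewer cells of a type and less RNA per cell cannot be told apart.

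A gene was tested where at least 2 of the 4 libraries of its line reached 1 FPKM. That admitted 7 of the 9 members in SUDHL6 (all but GPR183 and KLF2) and 5 in HT (CXCR4, CXCR5, ITGA4, ITGB7 and ITGB1). Changes are log2 differences of FPKM + 1, iEZH over DMSO, fitted with limma over all tested genes of a line. No member passed the adjusted p of 0.05 in either line. In SUDHL6 3 of the 7 were under an unadjusted limma p of 0.05 (CCR7, CXCR4 and ITGB1), while 0.269% of the 11173 tested genes passed the adjusted threshold and 18.8% the unadjusted one. In HT 1 of the 5, CXCR5, was under the unadjusted limma p, against 0.609% of 11321 genes at the adjusted threshold and 21.4% at the unadjusted one. With iEZH both libraries exceeded both DMSO libraries for 3 of the 7 tested members in SUDHL6 (CCR7, CXCR5 and ITGB1; background 28.9% of genes) and were under them for 2 (CXCR4 and ITGB7; background 20.6%). In HT they exceeded them for 2 of 5 (CXCR4 and ITGB7; background 28.5%) and were under them for 1 (CXCR5; background 23.4%). The members' median log2 change was 0.18 in SUDHL6, where the median over all tested genes was 0.04, and 0.13 in HT, where it was 0.02. These counts rest on 7 genes in SUDHL6 and 5 in HT and describe the members beside the background, with no test of the set.

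**Figure D1:**
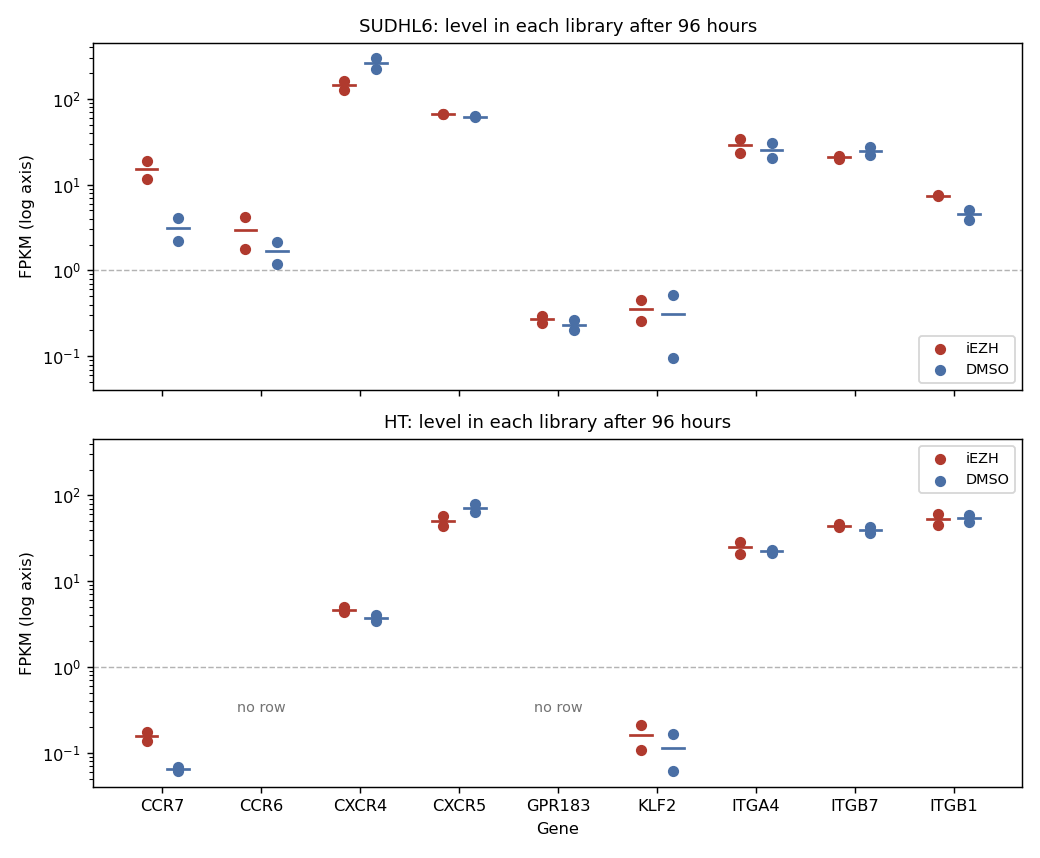
Level of each of the 9 genes in every library after 96 hours, in FPKM on a log axis, for SUDHL6 (top) and HT (bottom). Each point is 1 library, short bars are the means of the 2 libraries, iEZH stands left of DMSO, and the dashed line marks 1 FPKM. In SUDHL6 CCR7 stands at 11.6 and 19.0 FPKM with iEZH, above 2.18 and 4.05 FPKM with DMSO, and both CCR7 and CXCR4 are far higher in SUDHL6 than in HT.

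The promoters of CXCR4 and CXCR5 are shown because these are the 2 receptors whose groups separated in opposite directions in the 2 lines. Each run holds 250 bases before and 50 from the RefSeq start (GRCh38.p14), read 5′ to 3′ along the gene's strand, with CG dinucleotides in capitals. They lie at chr2:136118100-136118399 on the minus strand (CXCR4) and chr11:118893142-118893441 on the plus strand (CXCR5).
CXCR4: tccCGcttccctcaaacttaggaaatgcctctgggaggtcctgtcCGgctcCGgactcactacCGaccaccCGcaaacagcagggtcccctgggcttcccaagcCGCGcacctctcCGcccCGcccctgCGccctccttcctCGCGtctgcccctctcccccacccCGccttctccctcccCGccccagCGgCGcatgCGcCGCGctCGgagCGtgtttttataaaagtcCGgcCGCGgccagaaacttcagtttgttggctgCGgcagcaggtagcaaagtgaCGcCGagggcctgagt
CXCR5: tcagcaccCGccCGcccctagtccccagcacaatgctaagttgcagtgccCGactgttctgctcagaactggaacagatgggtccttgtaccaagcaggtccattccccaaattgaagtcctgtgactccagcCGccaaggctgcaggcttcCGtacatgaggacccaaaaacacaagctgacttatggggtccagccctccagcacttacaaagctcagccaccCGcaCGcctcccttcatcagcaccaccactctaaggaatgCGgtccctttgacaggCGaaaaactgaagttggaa
The CXCR4 window held 27 CG dinucleotides, more than 71.8% of 35114 RefSeq promoters of the same length, and the CXCR5 window held 9, more than 41.6%. RefSeq promoters matched 8 of the 9 genes. KLF2 (49), ITGB1 (39) and ITGA4 (31) also held more CG dinucleotides than the median promoter, which held 14, and GPR183 (4), ITGB7 (4) and CCR6 (2) held fewer. Counts of CG describe the sequence and carry no information on methylation or chromatin in these cells.

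CCR7, the receptor for CCL19 and CCL21, was the member with the widest difference. In SUDHL6 it stood at 11.6 and 19.0 FPKM with iEZH, against 2.18 and 4.05 FPKM with DMSO. The lower iEZH library was above the higher DMSO library by a wide margin, although within each treatment replicate 2 was well above replicate 1. Its mean was 15.3 ± 5.25 FPKM with iEZH and 3.12 ± 1.32 FPKM with DMSO (SD, n = 2 each), a 4.91-fold ratio and a log2 change of 1.99 (SE 0.33, 95% interval 1.12 to 2.86). The change was larger in size than that of 99.4% of tested genes and ranked 233 of 11173 by p, but did not pass the threshold (limma, adjusted p = 0.118). In the authors' deposited table the fold was 4.91 with a Tukey p of 0.0861 and an FDR of 0.410.

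In HT cells CCR7 was near the floor of the table, 0.0613 FPKM, a value that the most weakly measured genes share. It was listed at 0.175 and 0.137 FPKM with iEZH, against 0.0684 and 0.0613 FPKM with DMSO. Both iEZH values were the higher ones, at levels far under the 1 FPKM filter, so the gene was not tested in HT and no fold is given. In the authors' deposited table CCR7 in HT had a Tukey p of 0.0414 and an FDR of 0.288, with no fold. The difference between the lines could therefore not be tested for CCR7.

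CCR6, the receptor for CCL20, was low in SUDHL6. It stood at 1.79 and 4.19 FPKM with iEZH, against 1.19 and 2.14 FPKM with DMSO. The groups overlapped, and the log2 change was 0.54 with a 95% interval from -0.41 to 1.49 (limma, adjusted p = 0.503). As for CCR7, replicate 2 was well above replicate 1 within each treatment, and the labels give these numbers no meaning. The log2 change was 0.98 without iEZH replicate 1, 0.09 without iEZH replicate 2, 0.28 without DMSO replicate 1 and 0.80 without DMSO replicate 2.

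CXCR4, the receptor for CXCL12, was the most abundant member in SUDHL6. There it measured 126 and 163 FPKM with iEZH, against 222 and 295 FPKM with DMSO. Both iEZH libraries were below both DMSO libraries. The mean was 144 ± 26.0 FPKM with iEZH and 259 ± 51.9 FPKM with DMSO (SD, n = 2 each), a ratio of 0.558 and a log2 change of -0.83 (SE 0.22, 95% interval -1.43 to -0.24), short of the threshold (limma, adjusted p = 0.170).

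In HT CXCR4 was at a far lower level, and its order was the opposite one. It measured 4.39 and 4.96 FPKM with iEZH, against 3.43 and 4.05 FPKM with DMSO, without overlap. The log2 change was 0.26 with a 95% interval from -0.09 to 0.61 (limma, adjusted p = 0.362). Set directly against each other, the change in SUDHL6 was lower than the change in HT by a log2 difference of -1.09 (SE 0.26, 95% interval -1.71 to -0.48; limma interaction, adjusted p = 0.204). That difference did not pass adjustment over the 10426 genes tested in both lines, of which 0.106% passed and 11.1% were under an unadjusted p of 0.05.

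CXCR5, the receptor for CXCL13, was a highly expressed member in both lines. In SUDHL6 it was at 65.87 and 65.88 FPKM with iEZH, against 62.3 and 60.7 FPKM with DMSO. The groups did not overlap, but the gap was small, with a log2 change of 0.10 and a 95% interval from -0.19 to 0.39 (limma, adjusted p = 0.703). In the authors' deposited table its Tukey p in SUDHL6 was 0.0330 and the FDR 0.331. In HT it was at 43.8 and 57.5 FPKM with iEZH, against 64.8 and 79.4 FPKM with DMSO, again without overlap but lower with iEZH. The mean in HT was 50.7 ± 9.71 FPKM with iEZH and 72.1 ± 10.4 FPKM with DMSO (SD, n = 2 each), a ratio of 0.703 and a log2 change of -0.51 (SE 0.19, 95% interval -0.98 to -0.03; limma, adjusted p = 0.212). The change in SUDHL6 exceeded that in HT by 0.60 (limma interaction, 95% interval 0.07 to 1.13, adjusted p = 0.400). CXCR5 and BCL9L overlap on chromosome 11 (hg19), and strandedness is not given in the sources used here, so reads in the overlap cannot be assigned with certainty. BCL9L stood at 1.62 and 1.69 FPKM with iEZH and 0.616 and 0.860 FPKM with DMSO in SUDHL6, and at 11.4 and 11.3 FPKM with iEZH and 12.5 and 13.0 FPKM with DMSO in HT.

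The receptors were also set against each other within each library. In SUDHL6 the ratio of CXCR4 to CXCR5 was 1.91 and 2.47 with iEZH, against 3.56 and 4.86 with DMSO. In SUDHL6 the ratio of CXCR4 to CCR7 was 10.9 and 8.55 with iEZH, against 102 and 72.8 with DMSO. In HT the ratio of CXCR5 to CXCR4 was 9.99 and 11.6 with iEZH, against 18.9 and 19.6 with DMSO. None of these 3 ratios overlapped between treatments, and none was tested. In each, the 2 genes had themselves separated in opposite directions, so the ratio could not overlap and is no further evidence. CXCR4 stayed above CXCR5 in every SUDHL6 library, and CXCR5 above CXCR4 in every HT library.

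GPR183, the receptor for the oxysterol 7α,25-dihydroxycholesterol, was at 0.295 and 0.241 FPKM with iEZH, against 0.264 and 0.202 FPKM with DMSO in SUDHL6. The groups overlapped at a level under the filter, and no test was made. The gene lies within UBAC2 on chromosome 13 (hg19), which stood at 27.6 and 29.7 FPKM with iEZH and 24.2 and 28.5 FPKM with DMSO, so reads of UBAC2 and GPR183 cannot be told apart with certainty.

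Among the integrins, ITGB1, the β1 subunit, showed the clearest separation in SUDHL6. It was at 7.34 and 7.51 FPKM with iEZH, against 3.92 and 5.07 FPKM with DMSO, without overlap. The mean was 7.42 ± 0.117 FPKM with iEZH and 4.50 ± 0.817 FPKM with DMSO (SD, n = 2 each), a 1.65-fold ratio and a log2 change of 0.62 (SE 0.14, 95% interval 0.25 to 0.99; limma, adjusted p = 0.138). In the authors' deposited table the Tukey p was 0.0374 and the FDR 0.336. In HT ITGB1 was at 45.4 and 60.9 FPKM with iEZH, against 49.3 and 58.7 FPKM with DMSO, and the groups overlapped. The log2 change in HT was -0.03 with a 95% interval from -0.51 to 0.44 (limma, adjusted p = 0.943). The change in SUDHL6 exceeded that in HT by 0.66 (limma interaction, 95% interval 0.07 to 1.25, adjusted p = 0.407), which did not pass the threshold.

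ITGB7, the β7 subunit of the gut homing integrin, separated in opposite directions in the 2 lines. In SUDHL6 it was at 20.1 and 21.5 FPKM with iEZH, against 27.1 and 22.3 FPKM with DMSO (log2 change -0.23, 95% interval -0.60 to 0.13; limma, adjusted p = 0.447). In HT it was at 42.4 and 46.5 FPKM with iEZH, against 36.7 and 42.3 FPKM with DMSO (log2 change 0.17, 95% interval -0.17 to 0.50; limma, adjusted p = 0.522). The nearest values of the 2 treatments almost touched in both lines. The change in SUDHL6 was lower than that in HT by a log2 difference of -0.40 (limma interaction, 95% interval -0.85 to 0.04, adjusted p = 0.513). Of the 10426 genes tested in both lines, 5.99% separated without overlap in opposite directions, as CXCR4, CXCR5 and ITGB7 did among the 5 members tested in both.

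ITGA4, the α4 subunit shared by both β partners, overlapped between treatments in both lines. In SUDHL6 it was at 23.7 and 34.3 FPKM with iEZH, against 20.6 and 30.4 FPKM with DMSO (log2 change 0.18, 95% interval -0.53 to 0.89; limma, adjusted p = 0.778). In HT it was at 20.9 and 28.6 FPKM with iEZH, against 21.4 and 23.3 FPKM with DMSO (log2 change 0.13, 95% interval -0.33 to 0.58; limma, adjusted p = 0.740). These intervals do not show that the level was alike, only that no difference was detectable with 2 libraries a group. ITGA4 overlaps CERKL on chromosome 2 (hg19), which was at or under 2.96 FPKM in every library. The difference between lines was 0.06 (limma interaction, 95% interval -0.78 to 0.89, adjusted p = 0.981).

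The ratio of β7 to β1 message in SUDHL6 was lower with iEZH, without overlap, at 2.74 and 2.86 with iEZH, against 6.92 and 4.39 with DMSO. In HT the same ratio, again without overlap but higher with iEZH, was 0.934 and 0.764 with iEZH, against 0.744 and 0.721 with DMSO. β7 message exceeded β1 message in every SUDHL6 library, and β1 exceeded β7 in every HT library. In SUDHL6 ITGB7 and ITGB1 had themselves separated in opposite directions, so their ratio could not overlap and is no further evidence. The ratios were not tested, and message levels do not give the pairing of the proteins.

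KLF2 was barely detected. It was listed at 0.259 and 0.448 FPKM with iEZH, against 0.0962 and 0.523 FPKM with DMSO in SUDHL6, and at 0.109 and 0.210 FPKM with iEZH, against 0.0613 and 0.167 FPKM with DMSO in HT. The groups overlapped in both lines, all 8 values were under the filter, and KLF2 was not tested.

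**Figure D2:**
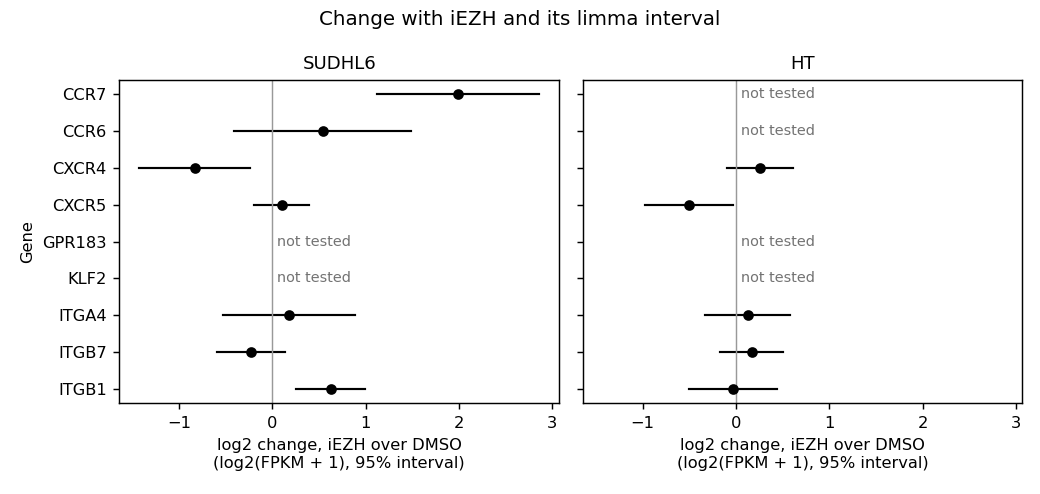
Log2 change of each gene, iEZH over DMSO, on the log2(FPKM + 1) scale, with the limma 95% interval as a line, for SUDHL6 (left) and HT (right); genes under the filter or with no row are marked as not tested. The intervals of CCR7, CXCR4 and ITGB1 in SUDHL6 and of CXCR5 in HT lie away from 0, and no member passed the adjusted threshold.

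**Figure D3:**
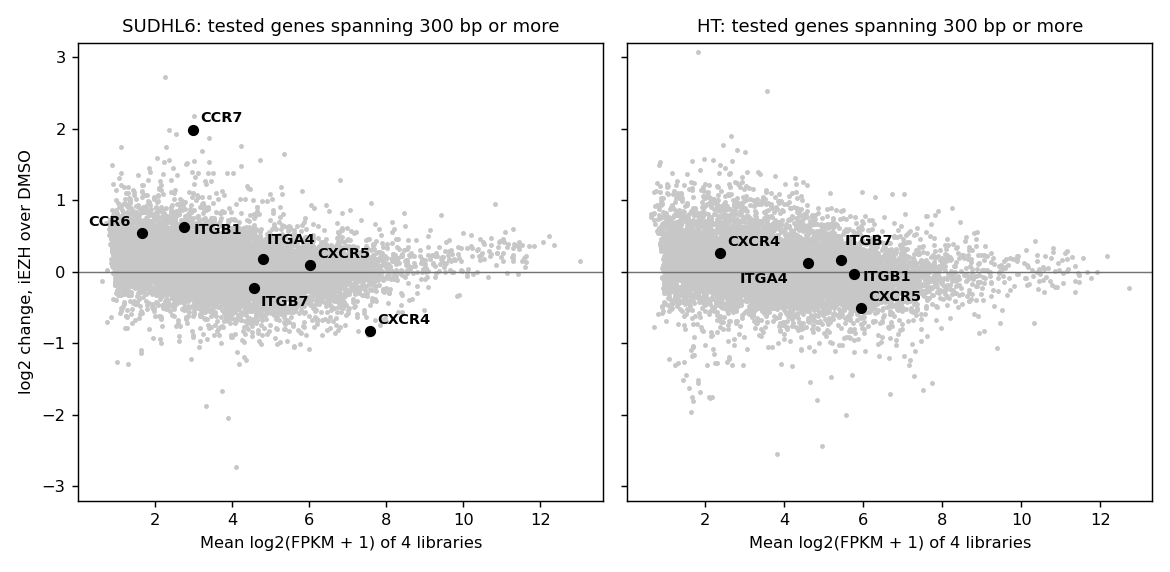
Log2 change, iEZH over DMSO, against the mean log2(FPKM + 1) of the 4 libraries for all tested genes spanning 300 bp or more (grey) in SUDHL6 (left) and HT (right), with the tested members in black. CCR7 in SUDHL6, at 1.99, is near the top edge of the cloud, and CXCR4 in SUDHL6, at -0.83, near the lower edge for genes of its level.

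The lines differed widely in the starting level of some members. With DMSO, mean CXCR4 was 259 FPKM in SUDHL6 and 3.74 FPKM in HT, 69.1 times higher in SUDHL6, while mean ITGB1 was 4.50 FPKM in SUDHL6 and 54.0 FPKM in HT, much higher in HT. CXCR5, ITGA4 and ITGB7 stood within 1.60-fold of each other between the lines. The tables of the 2 lines were made separately, so these levels are descriptions.

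In SUDHL6 the order of mean levels with iEZH was CXCR4, CXCR5, ITGA4, ITGB7, CCR7, ITGB1, CCR6, KLF2 and GPR183, and only KLF2 and GPR183 overlapped with their neighbour. With DMSO the order was the same except that ITGB1 stood above CCR7, and the neighbours ITGA4 and ITGB7, ITGB1 and CCR7, and KLF2 and GPR183 overlapped. In HT the order with iEZH was ITGB1, CXCR5, ITGB7, ITGA4, CXCR4, KLF2 and CCR7, where ITGB1, CXCR5 and ITGB7 ran into one another, as did KLF2 and CCR7. With DMSO CXCR5 stood above ITGB1 in HT without overlap, and the rest kept that order.

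CCR7 lies on chromosome 17 from 38710021 to 38721736 (hg19). The genes within 500 kb of it were listed after its values were seen. In SUDHL6 15 of them were tested, 10 with a positive and 5 with a negative log2 change, with a median of 0.26 and 0 called (limma). The gene next to CCR7 on the side of lower coordinates in the SUDHL6 table was IGFBP4, an insulin-like growth factor binding protein, at 38599675 to 38613982, a gap of 96039 bp. It stood at 18.3 and 19.9 FPKM with iEZH, against 3.46 and 5.87 FPKM with DMSO, a log2 change of 1.86 (SE 0.23, 95% interval 1.25 to 2.48; limma, adjusted p = 0.101), which did not pass the threshold either. TOP2A and SMARCE1, of which TOP2A lies beyond IGFBP4 and SMARCE1 on the opposite side of CCR7, had log2 changes of -0.03 and 0.19. Further from CCR7, GJD3 had a log2 change of 0.87 (limma, adjusted p = 0.113), RARA 0.64 and THRA 0.80, none past the limma threshold. The lowest log2 change of the window in SUDHL6 was that of CDC6, at -0.47 (limma, adjusted p = 0.299). In HT 13 genes of the window were tested, 8 positive and 5 negative, with a median of 0.11 and 0 called (limma). They ran from -0.58 (CDC6) to 0.78 (NR1D1, -0.23 in SUDHL6). THRA, positive in SUDHL6, was also positive in HT, at 0.77 (limma, adjusted p = 0.0593). IGFBP4 had no row in the HT table. CXCR4 had 4 tested genes within 500 kb in SUDHL6, all with a negative log2 change and none called. They ran from -0.69 (MCM6; limma, adjusted p = 0.128) to -0.05. The nearest of them, DARS, had a log2 change of -0.16 in SUDHL6 (limma, adjusted p = 0.564). In HT, where CXCR4 was higher with iEZH, DARS had one of -0.37 (limma, adjusted p = 0.146). The other genes near CXCR4 were not listed for HT. On chromosome 11, 27 genes near CXCR5 were tested in HT, 15 positive and 12 negative, with a median of 0.01 and 0 called (limma).

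**Figure D4:**
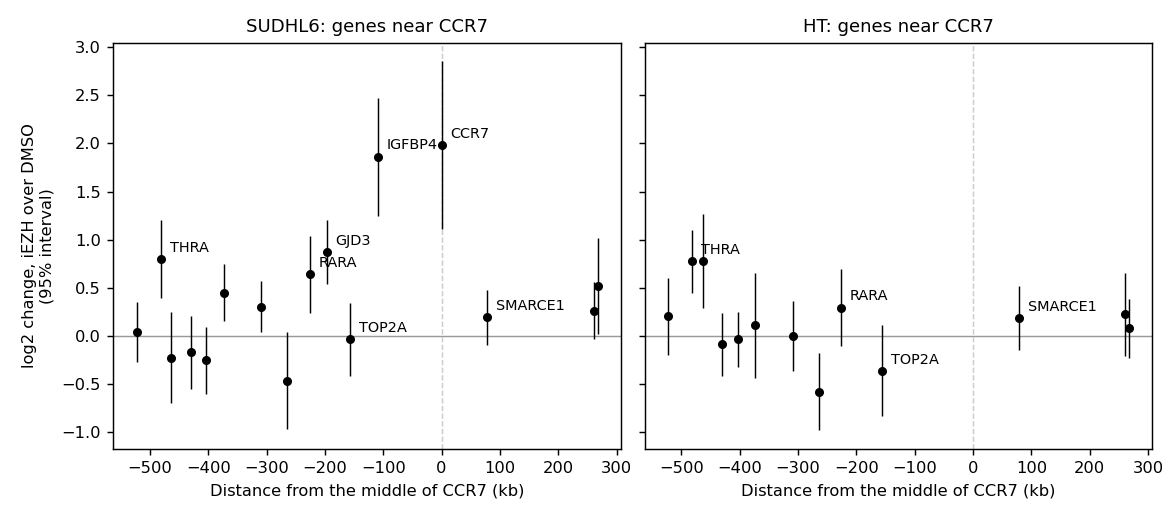
Log2 change, iEZH over DMSO, with limma 95% intervals, of CCR7 and the tested genes within 500 kb of it, against the distance in kb from the middle of CCR7, for SUDHL6 (left) and HT (right). In SUDHL6 CCR7 (1.99) and IGFBP4 (1.86) stand above their neighbours TOP2A (-0.03) and SMARCE1 (0.19); neither CCR7 nor IGFBP4 has a point in HT.

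Patterns of log2(FPKM + 1) were compared across the 8 libraries, with each line centred on its own mean. Only genes spanning 300 bp or more and tested in both lines were searched, so IGFBP4, with no row in HT, was left out. Of 10308 such genes, those most like CCR7 were GSN (r = 0.996), FAM13B (r = 0.996) and CYHR1 (r = 0.995). CCR7 was near the floor in HT, so this likeness rests mainly on the 4 SUDHL6 libraries. For CXCR5, the member with the smallest p in HT, they were RTCA (r = 0.990), GCA (r = 0.983) and PEX2 (r = 0.979) of 10307. These correlations describe libraries that share a line and its table, and no p is given.

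The wider migration and adhesion machinery was described with 7 lists, chosen with earlier results of these data known. Their shares beside those of all genes are therefore descriptions. The lists hold 170 genes besides the members. In SUDHL6 107 had a row, 91 were tested, 0 passed the adjusted limma threshold and 30 (33.0%) were under an unadjusted p of 0.05, against 18.8% of all tested genes, with a median log2 change of 0.00. In HT 115 had a row, 100 were tested, 1 passed and 28 (28.0%) were under an unadjusted p of 0.05, against 21.4% of all tested genes, with a median of -0.02. EZH2 itself did not pass in either line, at 54.9 and 47.5 FPKM with iEZH and 63.1 and 58.7 FPKM with DMSO in SUDHL6 (log2 change -0.25; limma, adjusted p = 0.401), and 56.2 and 49.4 FPKM with iEZH and 63.6 and 55.9 FPKM with DMSO in HT (log2 change -0.18; limma, adjusted p = 0.519). Its level does not check the inhibitor, which is directed at enzyme activity.

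Of 30 other chemokine and related receptors, 8 were tested in SUDHL6 and 9 in HT, and none passed (limma), with 3 and 1 under an unadjusted p of 0.05. S1PR2, which holds germinal centre B cells in the follicle, was at 34.2 and 37.7 FPKM with iEZH, against 53.1 and 59.9 FPKM with DMSO in SUDHL6 (log2 change -0.64; limma, adjusted p = 0.129). In HT S1PR2 overlapped between treatments (log2 change -0.04; limma, adjusted p = 0.879). LTB4R, a receptor for leukotriene B4, was at 6.63 and 6.25 FPKM with iEZH, against 4.77 and 5.19 FPKM with DMSO in SUDHL6 (log2 change 0.32; limma, adjusted p = 0.224). In HT the lowest p of this list were those of ACKR4, a scavenger of CCR7 ligands (log2 change -0.46; limma, adjusted p = 0.112), and the lysophosphatidylserine receptor GPR174 (log2 change -0.43; limma, adjusted p = 0.347). Of the 8 genes for the receptors' ligands and for enzymes that make or degrade the GPR183 ligand, 1 had a row in each line, and it was not tested.

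Of the genes that carry or end receptor signals, 27 of 32 were tested in SUDHL6 and 28 in HT. RGS16, which speeds the switching off of G proteins downstream of chemokine receptors, rose in HT, the only gene of the 7 lists to pass. It was at 37.8 and 32.5 FPKM with iEZH, against 14.9 and 14.1 FPKM with DMSO (log2 change 1.22, SE 0.13; limma, adjusted p = 0.0444). That call was lost when any 1 of the 4 HT libraries was left out, with adjusted p of 0.0596 to 0.0995, and with no filter on low values, at 0.0891. In SUDHL6 none passed (limma), with 7 under an unadjusted p of 0.05. RGS16 overlapped between treatments there (log2 change 0.19; limma, adjusted p = 0.688). The lowest p were those of RGS3, a further G protein regulator (log2 change -0.62; limma, adjusted p = 0.115), and ELMO1, which works with DOCK2 in Rac activation (log2 change -0.61; limma, adjusted p = 0.155). ELMO1 went the other way in HT, without overlap (log2 change 0.71; limma, adjusted p = 0.0645). RGS3 overlapped between treatments in HT (log2 change 0.12; limma, adjusted p = 0.786).

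Of 23 other integrin subunits, 5 were tested in SUDHL6 and 6 in HT, and none passed (limma), with 4 and 1 under an unadjusted p of 0.05. In SUDHL6 the median log2 change of these 5 was 0.49. ITGAL, the αL subunit of LFA-1, was at 120 and 145 FPKM with iEZH, against 90.4 and 89.5 FPKM with DMSO in SUDHL6 (log2 change 0.54; limma, adjusted p = 0.171), and ITGA3 had a log2 change of 0.45 (limma, adjusted p = 0.153). In HT the median of the 6 was 0.22. ITGB2, the β partner of ITGAL, was at 43.4 and 39.5 FPKM with iEZH, against 55.4 and 52.8 FPKM with DMSO in HT (log2 change -0.38; limma, adjusted p = 0.158), and ITGAV had a log2 change of 0.59 (limma, adjusted p = 0.307). ITGAL in HT had a log2 change of 0.20 (limma, adjusted p = 0.466). ITGB2 was higher with iEZH in SUDHL6, without overlap, at 9.41 and 6.70 FPKM, against 5.24 and 4.68 FPKM with DMSO (log2 change 0.59; limma, adjusted p = 0.200).

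Integrin activators and adaptors link the subunits to actin and to the GTPase Rap1. None of the 25 tested in SUDHL6 or the 28 tested in HT passed (limma), with 9 and 13 under an unadjusted p of 0.05. In SUDHL6 the focal adhesion adaptor PXN had a log2 change of 0.66 and the Rap1 inactivator SIPA1 one of -0.64, both at a limma adjusted p of 0.118. In HT 10 of the 28 had a positive and 18 a negative log2 change, with 5 and 8 of these under the unadjusted p. Vinculin (VCL), which couples talin to actin, was at 9.49 and 12.3 FPKM with iEZH, against 3.94 and 4.75 FPKM with DMSO in HT (log2 change 1.15; limma, adjusted p = 0.0556). VCL overlapped between treatments in SUDHL6 (log2 change -0.07; limma, adjusted p = 0.925).

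Adhesion partners and selectins included 8 tested genes in SUDHL6 and 11 in HT, and none passed (limma), with 4 and 3 under an unadjusted p of 0.05. CD58, the ligand of CD2, had log2 changes of 0.63 in SUDHL6 (limma, adjusted p = 0.119) and 0.61 in HT (limma, adjusted p = 0.0789). In HT CD58 was at 1.52 and 1.54 FPKM with iEZH, against 0.558 and 0.765 FPKM with DMSO. It met the 1 FPKM filter there only through the iEZH libraries, where it was higher, so the HT value is a description. SELPLG, which carries the ligand for P-selectin, had a log2 change of 0.73 in SUDHL6 (limma, adjusted p = 0.151). Its levels there were 1.52 and 2.20 FPKM with iEZH, against 0.565 and 0.871 FPKM with DMSO. SELPLG thus also met the filter in SUDHL6 only through the iEZH libraries. In HT SELPLG was lower with iEZH, without overlap (log2 change -0.45; limma, adjusted p = 0.148).

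Of the KLF family and the genes that act on KLF2, 18 were tested in each line and none passed (limma), with 3 under an unadjusted p of 0.05 in SUDHL6 and 3 in HT. MEF2C, a transcription factor upstream of KLF2, was at 1.19 and 1.28 FPKM with iEZH, against 0.428 and 0.516 FPKM with DMSO in SUDHL6 (log2 change 0.60; limma, adjusted p = 0.125). There MEF2C met the 1 FPKM filter only through the iEZH libraries, where it was higher, so this value is a description. In HT MEF2C was at 16.3 and 17.8 FPKM with iEZH, against 23.2 and 25.6 FPKM with DMSO (log2 change -0.49; limma, adjusted p = 0.114). The lowest p after it were those of KLF13 in SUDHL6 (log2 change 0.46; limma, adjusted p = 0.195) and of the ubiquitin ligase WWP1 in HT (log2 change 0.39; limma, adjusted p = 0.172).

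**Figure D5:**
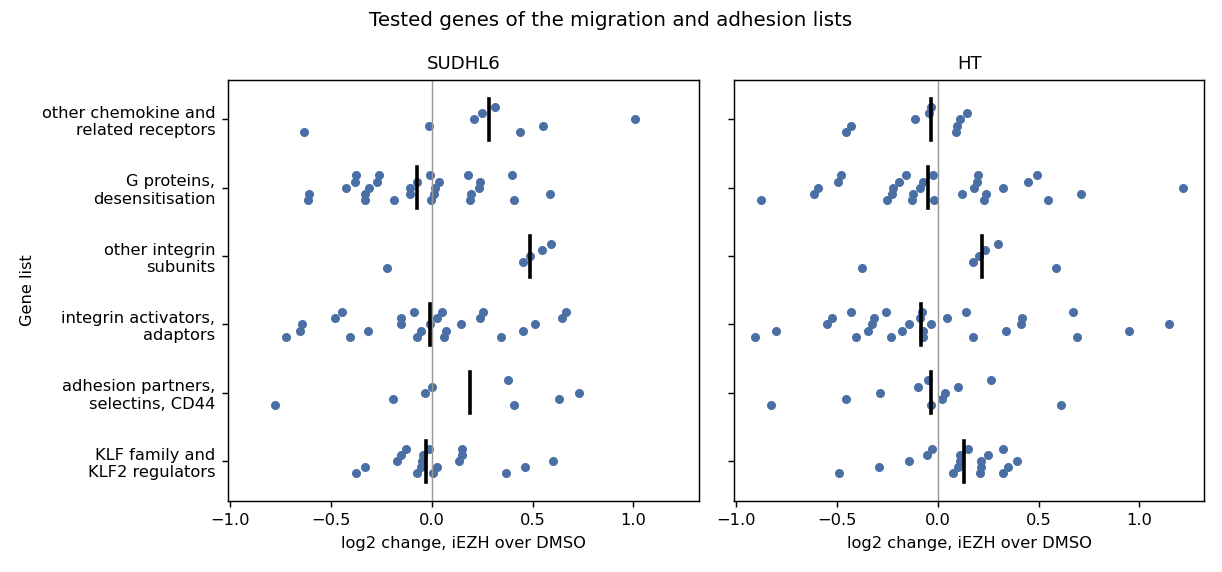
Log2 change, iEZH over DMSO, of every tested gene of 6 migration and adhesion lists in SUDHL6 (left) and HT (right), 1 point per gene, spread vertically only for legibility, with a black bar at each list's median. The medians lie within 0.19 of 0 except for the other integrin subunits (0.49 in SUDHL6, 0.22 in HT) and the receptors in SUDHL6 (0.28), and the list of ligands had no tested gene.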

How the data were processed

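RNA sequencing measured 8 libraries, 2 per group, of SUDHL6 and HT cells with iEZH or DMSO for 96 hours. The submitters' processing notes name hg19, TopHat 1.4.1 and Cufflinks (its version is not given in the sources used here). The authors deposited, for each line, FPKM per gene and library, a fold (the ratio of group means), a Tukey p-value and its FDR; per the file headers, only detectable genes were kept. Read counts of genes were not used here, so no counting intervals are given. Columns were matched through the sample sheets, and 0 stayed unmatched. AASDH, which has a non-numeric HT value, was left out, and the repeated symbol MARCH2 was kept out of the join between lines.

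From the deposited FPKM, log2(FPKM + 1) of genes with 1 FPKM or more in 2 of 4 libraries was fitted with limma 3.58.1 (R 4.3.3; eBayes with trend), per line, and with an interaction term over both lines for the difference. Tests were two-sided, with Benjamini-Hochberg adjustment across every tested gene and calls at 0.05. The script was tested on simulated data. An exact permutation test of 2 against 2 libraries cannot go below 0.333, so none is given. Named genes are the 9 members, EZH2, from each list per line up to 4 called genes or the 2 with the smallest p, and the 3 genes most alike in pattern; the genes near CCR7, CXCR4 and CXCR5 were added after their values were seen. Some genes that the rule names are not reported here. The members and lists were chosen with earlier results of these data known. Alternatives were pseudocounts of 0.1 and 0.5, filters, rescalings, eBayes options, short genes left out, a replicate block, a joint fit and leaving out each library. Promoter sequences are from RefSeq (GRCh38.p14).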

Additional observations from a re-analysis of the deposited data

Results flagged for a closer look

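CXCR4, CXCR5 and ITGB7 stood out because in each line the 2 iEZH libraries did not overlap the 2 DMSO libraries, but were on opposite sides in the 2 lines. The change in SUDHL6 minus the change in HT was -1.09 (log2) for CXCR4, 0.60 for CXCR5 and -0.40 for ITGB7. The difference itself was tested with a limma interaction term and did not pass for any of the 3, with adjusted p of 0.204, 0.400 and 0.513 in that order. Of the 10426 genes tested in both lines, 5.99% showed such an opposite separation.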

How the results depend on the processing

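The number of genes called in HT was 69 and became 12 with no filter on low values (4 higher and 8 lower), 41 with a filter at 5 FPKM, 36 with quantile normalization (23 higher and 13 lower, against 52 and 17), 497 with robust eBayes, 615 with genes under 300 bp left out, 817 with both lines in 1 fit, and 35 to 108 when 1 library was left out. Higher and lower calls in HT were then 18 and 27 without iEZH replicate 1, 12 and 23 without iEZH replicate 2, 28 and 20 without DMSO replicate 1, and 50 and 58 without DMSO replicate 2. In SUDHL6 it was 30 and became 2 with short genes left out, 392 with both lines in 1 fit, and 30 to 49 when 1 library was left out. For the difference it was 11 and became 17 with a pseudocount of 0.1, 18 with no filter, 7 with short genes left out, and 4 to 15 when 1 library was left out. The cause was not tested.

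The labels give replicate numbers 1 and 2 to every group but no meaning to them, so the samples share only a number. Libraries with the same number deviated together (r = 0.62 over 11164 genes in HT, 0.73 over 11006 genes in SUDHL6). With the replicate block, calls became 2482 in HT, 2313 in SUDHL6 and 543 for the difference, and 3743, 3780 and 1270 with short genes also left out. Members called became 1 in HT (CXCR5, adjusted p = 0.0159), 4 in SUDHL6 (CCR7, 0.000821; CCR6, 0.0395; CXCR4, 0.0113; ITGB1, 0.0198) and 2 for the difference (CXCR4, 0.0105; CXCR5, 0.0347), or 1, 4 and 3 with short genes left out, where ITGB1 was added to the difference (0.0112).

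With both lines in 1 fit, 1 member, CCR7, had an adjusted p under 0.05 in SUDHL6 (0.0285), but the spread in that fit includes 4 HT libraries in which CCR7 was at or near the floor and under the filter, so the value is no support for a change. No member was called under the remaining alternatives, leaving out each library included. CCR7 in SUDHL6 ranged from 1.65 to 2.32, CXCR4 in SUDHL6 from -1.04 to -0.63, CCR6 in SUDHL6 from 0.093 to 0.985 and CXCR5 in HT from -0.70 to -0.31 over the alternatives run. Direction was lost for ITGB1 in HT with quantile normalization (0.0435), and when 1 library was left out for ITGB1 in HT (-0.240 to 0.177), ITGA4 in HT (-0.0921 to 0.344), ITGA4 in SUDHL6 (-0.0875 to 0.451) and the ITGA4 difference (-0.213 to 0.325). The joint fit gave no value for CCR6, and the 5 FPKM filter none for CXCR4 in HT or CCR6 in SUDHL6.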
